A study of Mus musculus with 6 samples.

Results

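The PDGF family of the mouse was followed as its 2 receptor genes, Pdgfra and Pdgfrb, and its 4 ligand genes, Pdgfa, Pdgfb, Pdgfc and Pdgfd. Members were the probe sets whose platform annotation gives exactly 1 gene symbol that is one of these names. They came to 14 of the 45037 probe sets in the deposited table, and 12 of them, covering all 6 genes, lay above the level filter used for testing. The arrays measured RNA of mammary fat pads 4 and 9 from 3 wild-type (WT) and 3 Pxmp2-/- female mice, all labelled with the C57BL/6J strain background. Pxmp2 encodes a channel of the peroxisomal membrane, and the comparison addressed what its loss does to the growth of the mammary epithelium. Mice of both genotypes lost their ovaries at 21 days of age and received estradiol at 31 days, and tissue was collected 8 h later. How the gene was disrupted and whether the mice were littermates are not given in the sources used here.

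PDGF ligands are secreted dimers that bring 2 receptor molecules together and switch on their tyrosine kinase domains. The alpha receptor is bound by the A, B and C chains, and the beta receptor mainly by the B and D chains. In adipose and mammary stroma Pdgfra is known as a marker of fibroblasts and adipocyte progenitors. Pdgfrb is known from the mural cells that wrap small vessels, which are recruited by PDGF-B from the endothelium.

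RefSeq's promoter table for the assembly GRCm38.p6 held windows for 4 of the 6 members, Pdgfra, Pdgfa, Pdgfc and Pdgfd. The 250 bases before the annotated start are printed for these 4. Pdgfra and Pdgfc read lower in Pxmp2-/- mice in their brightest probe sets, whereas the groups overlapped for Pdgfa and Pdgfd. No window was held for Pdgfb, which also read lower, or for Pdgfrb. Any relation of the windows to these readings was not tested. Capitals mark matches on either strand to the GC box GGGCGG, to TATAAA, to CCAAT, to the AP-1 site TGANTCA, or to the estrogen response half-site AGGTCA. The Pdgfra window lies at chr5:75152001-75152250 and the Pdgfc window at chr3:81036166-81036415, both on the plus strand. The Pdgfa window is at chr5:138994945-138995194 on the minus strand, and that of Pdgfd at chr9:6168236-6168485 on the plus strand.
Pdgfra: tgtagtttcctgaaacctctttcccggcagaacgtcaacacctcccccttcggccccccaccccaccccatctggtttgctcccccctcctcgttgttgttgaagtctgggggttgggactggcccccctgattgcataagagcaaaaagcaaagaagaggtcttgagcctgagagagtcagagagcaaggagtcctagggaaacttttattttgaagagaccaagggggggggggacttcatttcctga
Pdgfc: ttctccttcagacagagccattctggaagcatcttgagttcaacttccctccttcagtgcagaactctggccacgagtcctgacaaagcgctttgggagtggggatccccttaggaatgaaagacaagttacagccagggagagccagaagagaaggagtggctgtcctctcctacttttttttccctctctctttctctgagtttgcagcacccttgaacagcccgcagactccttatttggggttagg
Pdgfa: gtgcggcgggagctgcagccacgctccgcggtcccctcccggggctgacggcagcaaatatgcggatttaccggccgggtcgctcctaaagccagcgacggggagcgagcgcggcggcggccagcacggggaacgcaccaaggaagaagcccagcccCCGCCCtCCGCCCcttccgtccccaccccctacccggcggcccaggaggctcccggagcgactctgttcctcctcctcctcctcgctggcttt
Pdgfd: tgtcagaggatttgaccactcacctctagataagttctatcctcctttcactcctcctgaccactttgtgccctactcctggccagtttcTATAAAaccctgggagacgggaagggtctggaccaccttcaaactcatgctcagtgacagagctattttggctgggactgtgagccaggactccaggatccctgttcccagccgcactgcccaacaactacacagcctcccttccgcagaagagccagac

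None of the 5 motifs occurred in the Pdgfra or Pdgfc window. The Pdgfa window held 2 neighbouring GC boxes, 93 and 86 bases before the start, and a further Pdgfa window at chr5:138994282-138994531 held 1. The Pdgfd window held TATAAA 160 bases before the start. Among 32851 promoter windows of this length, 32.7% held the GC box, 12.4% TATAAA, 33.8% CCAAT, 6.75% the AP-1 letters and 14% the estrogen half-site. The share of G and C was 54.4% for Pdgfra, 50.8% for Pdgfc, 53.6% for Pdgfd and 72.4% for the Pdgfa window shown, against a median of 52.4% over all windows. A match describes letters only, and these arrays did not measure binding or the start sites in use.

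The 6 arrays had median intensities between 98.5 and 105 arbitrary units, and correlations between arrays ranged from 0.986 to 0.991 over the 45037 probe sets, a description since probe sets are no replicates. On the first principal component, which held 40.4% of the variance, the WT mice lay from -26.8 to -13.3. Pxmp2-/- 1, 2 and 3 stood there at 3.49, 22.4 and 28.4. On the second principal component, which held 18.5% of the variance, Pxmp2-/- 1 stood at 26.7, with all others from -15.7 to 6.61. Pxmp2 itself checked the labels. Its probe set read 2465 to 2797 in WT mice and 260 to 308 in Pxmp2-/- mice. With 3 arrays per genotype, their number sets the precision.

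Within the PDGF family the brightest probe sets of Pdgfra, Pdgfb and Pdgfc read lower in Pxmp2-/- mice with no overlap between the groups. The dimmer Pdgfrb probe set did so too, while the groups overlapped for the second Pdgfc probe set. None of these differences passed the adjusted threshold. At a limma adjusted p under 0.05 the count was 0 of 12 tested member probe sets, where 0.0629% of all 27022 tested probe sets passed. At an unadjusted limma p under 0.05, 6 of the 12 were lower and 1 was higher, against a background of 10.5% lower and 6.12% higher. After quantile normalization 4 of the 12 were lower and 0 higher at this p, and over all tested probe sets the split moved from 2842 lower and 1655 higher to 2128 and 2129. The same 6 were lower with no overlap between the groups, and 0 were higher without overlap. Among all tested probe sets 15.1% were lower and 7.73% higher without overlap. Probe sets of the same gene share their transcripts, so the 12 are not separate observations. With the brightest probe set standing for each gene, 3 of 6 genes were lower at this p (8.62% of 12775 tested genes) and 0 higher (5.54%). The median log2 difference was -0.25 over the 6 genes and -0.03 over all tested genes. In whole-tissue RNA, fewer cells of a type and less RNA per cell cannot be told apart.

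**Figure D1:**
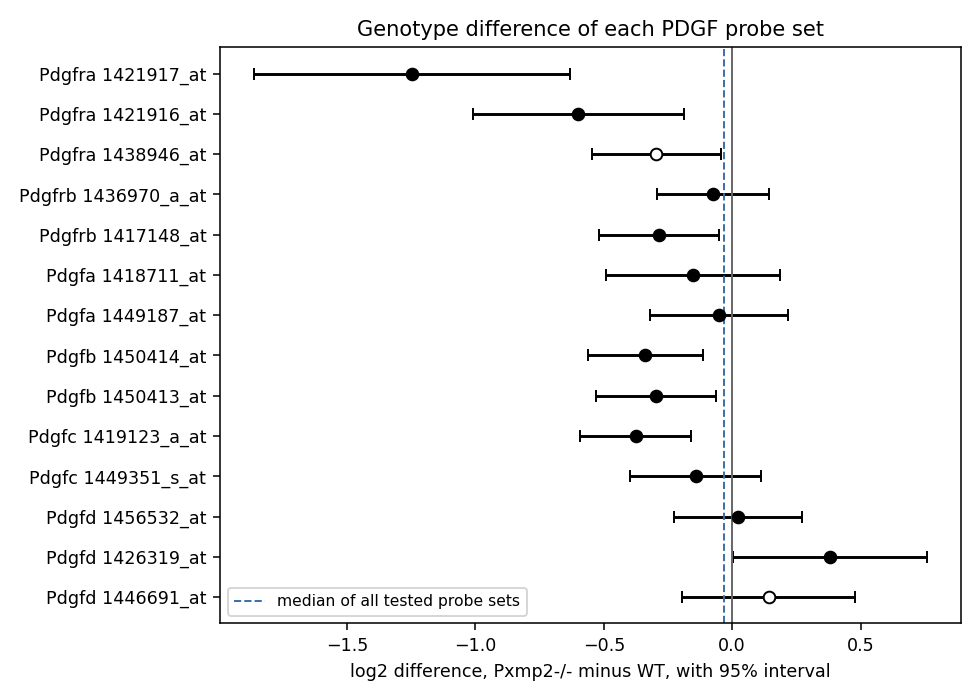
Log2 difference (Pxmp2-/- minus WT, log2(intensity + 16) scale, horizontal axis) of each of the 14 member probe sets with its 95% limma interval; open circles are the 2 probe sets below the level filter and the dashed line is the median of all tested probe sets. The interval of 1421917_at for Pdgfra runs from -1.86 to -0.63, and those of Pdgfa, of the brighter Pdgfrb probe set and of the brightest Pdgfd probe set span 0.

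Pdgfra, the alpha receptor, gave the family's largest difference. Its brightest probe set (1421917_at) read 1432, 1966 and 1939 in the WT mice and 975, 855 and 468 in the Pxmp2-/- mice. Every Pxmp2-/- mouse lay below every WT mouse, and Pxmp2-/- 3 was the lowest by a wide step. The group means were 1779 ± 301 and 766 ± 265 (SD, n = 3 each), so that the Pxmp2-/- mean was 43.1% of the WT mean. This came to a log2 difference of -1.25 ± 0.26 (SE), a 2.38-fold lower level. The 95% interval ran from -1.86 to -0.63, and the limma adjusted p was 0.158. By brightest probe sets, 10 of 12775 tested genes were lower by at least 1 on this log2 scale, and Pdgfra held place 5 among all of them. Its log2 SD was 0.55 within the Pxmp2-/- group and 0.26 within the WT group. Without Pxmp2-/- 3 the log2 difference was -0.94, and without Pxmp2-/- 1 it was -1.45.

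The 2 dimmer Pdgfra probe sets were lower by less. The middle one (1421916_at) read 105, 145 and 146 in WT mice and 63.9, 104 and 78.4 in Pxmp2-/- mice. The groups did not overlap, but WT 1 and Pxmp2-/- 2 nearly met. Its log2 difference was -0.60 ± 0.18 (SE), with a limma adjusted p of 0.214. The dimmest one (1438946_at) was below the level filter and untested, with 26.2, 30.3 and 31.8 in WT mice and 18.2, 24.5 and 20.4 in Pxmp2-/- mice. All 3 probe sets thus separated the genotypes in the same direction, but they did not order the Pxmp2-/- mice alike. Pxmp2-/- 3 was lowest for the brightest probe set, and Pxmp2-/- 1 for the other 2.

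The brightest and the middle Pdgfra probe sets were designed from the same source record, per the platform annotation, and their ratio within an array was nearly constant in WT mice. The log2 ratio was 3.59, 3.62 and 3.59 in WT mice. In Pxmp2-/- 1 it was 3.63, and in Pxmp2-/- 2 and 3 it was 2.86 and 2.36. The brightest probe set was therefore lower relative to the middle one in 2 of the 3 Pxmp2-/- mice. The genotype difference of this ratio, -0.65, gave an exact two-sided permutation p of 0.4. The sources used here do not say which part of the transcript each probe set covers.

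**Figure D2:**
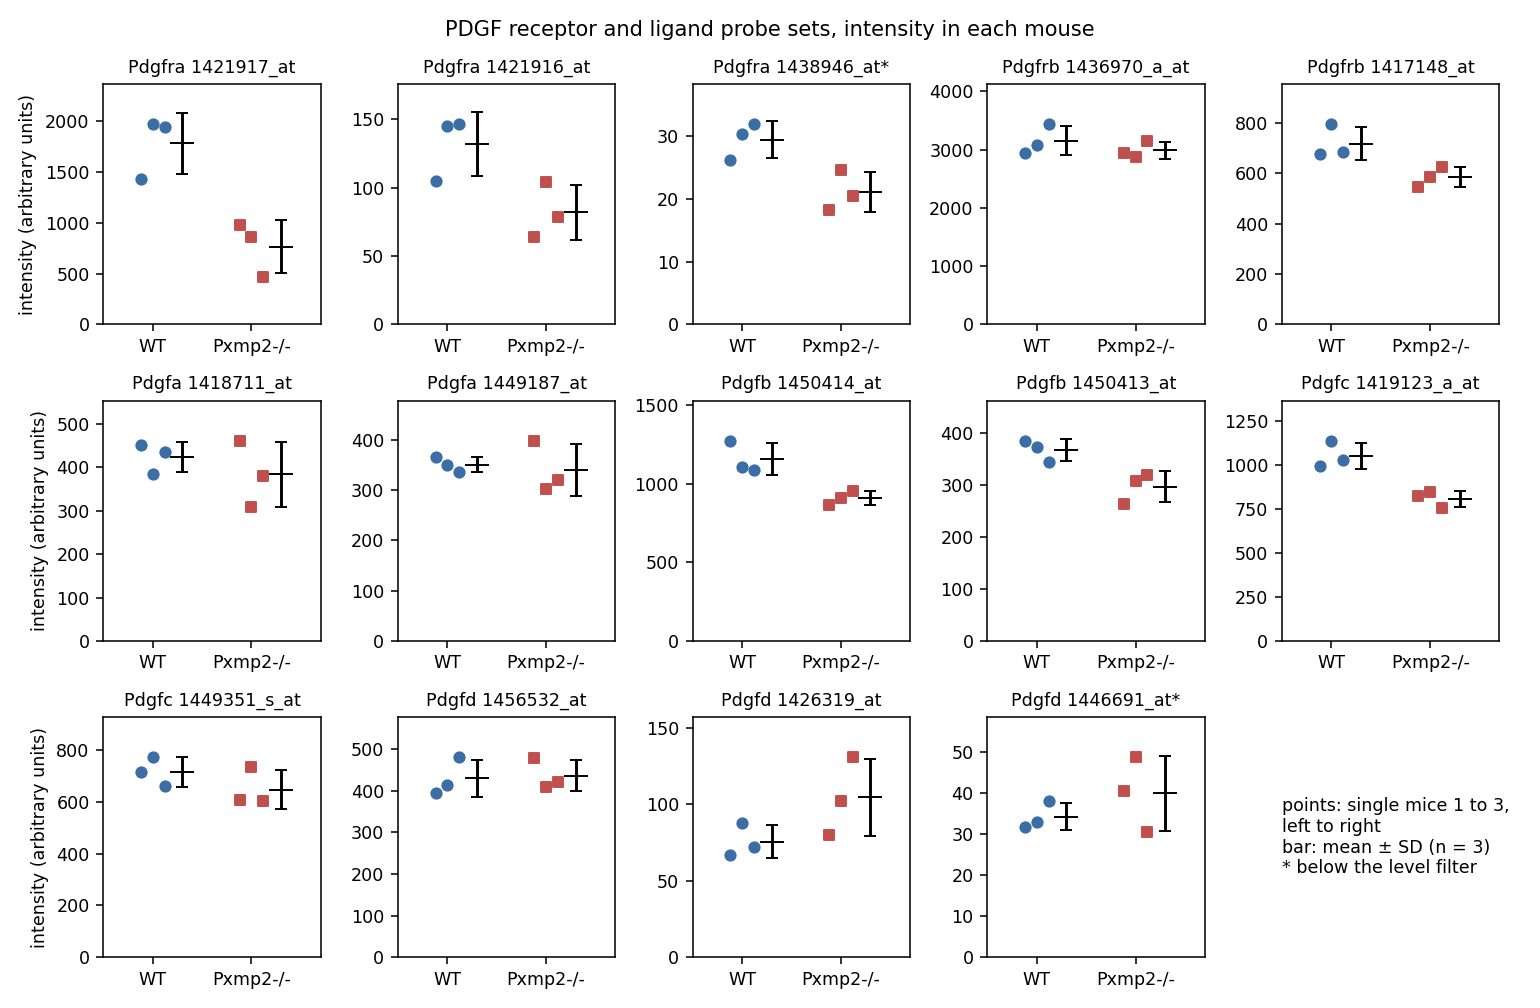
Intensity in arbitrary units (vertical axes from 0) of the 14 member probe sets in each WT mouse (circles) and Pxmp2-/- mouse (squares), with the mean ± SD of 3 mice beside them. For Pdgfra 1421917_at the Pxmp2-/- mice lie at 468 to 975, below the WT mice at 1432 to 1966, while for Pdgfa both groups overlap.

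Pdgfrb, the beta receptor, was close to level in its brighter probe set. That probe set (1436970_a_at) read 2942, 3081 and 3430 in WT mice and 2945, 2873 and 3153 in Pxmp2-/- mice. The groups overlapped, and the log2 difference was -0.07 with a 95% interval from -0.29 to 0.14. The dimmer probe set (1417148_at) read 675, 793 and 684 in WT mice and 545, 586 and 625 in Pxmp2-/- mice, with no overlap. Its log2 difference of -0.29 ± 0.10 (SE) had a limma adjusted p of 0.248. Both probe sets were lower in the mean, by different amounts.

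Both receptors were compared within each array. The log2 ratio of the brightest Pdgfra to the brighter Pdgfrb probe set was -1.03, -0.64 and -0.82 in WT mice and -1.58, -1.73 and -2.71 in Pxmp2-/- mice. No Pxmp2-/- mouse reached the lowest WT ratio, and the mean was lower by 1.18 on the log2 scale, with group SDs of 0.19 and 0.61. An exact two-sided permutation test over the 20 possible divisions of the mice gave p = 0.1, the smallest value that 3 against 3 allows. With the dimmer Pdgfrb probe set the difference of the ratio was -0.96, again with an exact permutation p of 0.1. With the mean of the tested probe sets of each gene it was -0.745, at the same exact permutation p.

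**Figure D3:**
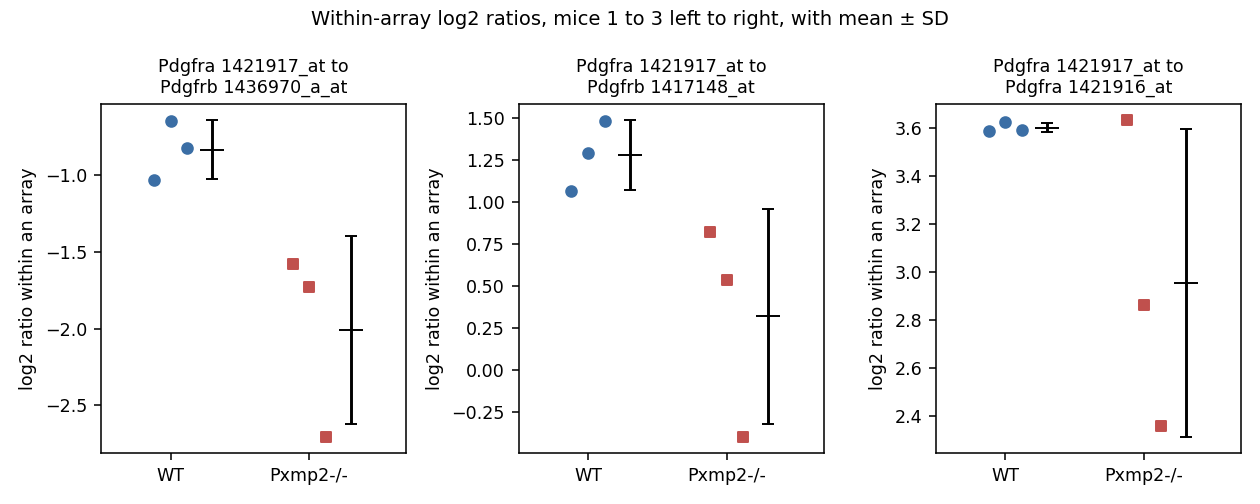
Log2 ratios of 2 probe sets within each array (vertical axes, which do not start at 0) for WT mice (circles) and Pxmp2-/- mice (squares), with the mean ± SD of 3 mice. The Pdgfra to Pdgfrb ratio lies from -1.03 to -0.64 in WT mice and from -2.71 to -1.58 in Pxmp2-/- mice, and in the right panel Pxmp2-/- 1 lies with the WT mice.

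Among the ligands, Pdgfb and Pdgfc had lower readings in Pxmp2-/- mice. Pdgfb encodes the B chain, which binds both receptors. Its brighter probe set (1450414_at) read 1272, 1108 and 1088 in WT mice and 864, 910 and 956 in Pxmp2-/- mice. All WT mice lay above all Pxmp2-/- mice, and the log2 difference was -0.34 ± 0.10 (SE), with a limma adjusted p of 0.209. The dimmer probe set (1450413_at) read 386, 373 and 345 against 264, 307 and 320, also without overlap. Its log2 difference was -0.30 ± 0.10 (SE), with a limma adjusted p of 0.24, so the 2 Pdgfb probe sets differed by nearly the same amount.

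Pdgfc encodes the C chain, a ligand of the alpha receptor that is secreted in a latent form with a CUB domain. The brighter probe set (1419123_a_at) read 995, 1138 and 1029 in WT mice and 823, 846 and 755 in Pxmp2-/- mice. The groups were separate, and the log2 difference was -0.38 ± 0.09 (SE), with a limma adjusted p of 0.183. The second probe set (1449351_s_at) read 713, 772 and 659 in WT mice and 607, 732 and 603 in Pxmp2-/- mice. Here Pxmp2-/- 2 lay among the WT mice, and the log2 difference was -0.14 with a 95% interval from -0.40 to 0.11. The name endings of both Pdgfc probe sets mark probe sets that can hybridise to more than a single transcript.

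Pdgfa, the A chain that binds the alpha receptor only, did not separate the genotypes. Its brighter probe set (1418711_at) read 451, 386 and 437 in WT mice and 461, 310 and 380 in Pxmp2-/- mice, a log2 difference of -0.15 with a 95% interval from -0.49 to 0.18. The second (1449187_at) read 366, 350 and 336 against 398, 302 and 319, a log2 difference of -0.05 that was 0.02 without Pxmp2-/- 2. In both probe sets Pxmp2-/- 1 was the highest of all 6 mice and Pxmp2-/- 2 the lowest.

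Pdgfd, whose D chain is a ligand of the beta receptor, was the one member whose mean readings lay above WT. Its brightest probe set (1456532_at) read 396, 414 and 481 in WT mice and 479, 410 and 420 in Pxmp2-/- mice, a log2 difference of 0.02 with a 95% interval from -0.23 to 0.27. The next (1426319_at) was dim, with 67.2, 87.5 and 71.9 in WT mice and 80.2, 102 and 131 in Pxmp2-/- mice. Its groups overlapped, and the log2 difference of 0.38 ± 0.16 (SE) had a limma adjusted p of 0.299. The dimmest (1446691_at), which was untested, read 31.8 to 38.1 in WT mice and 30.6 to 48.8 in Pxmp2-/- mice. The 3 Pdgfd probe sets did not vary together, with Pearson correlations between -0.26 and 0.28 over the 6 arrays, given as a description.

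Beside the receptors, markers of the cells that carry or supply them were read. The list of fibroblast and adipocyte progenitor markers, which does not hold Pdgfra, summed to 89025 to 102100 intensity units over its 23 tested genes in WT mice and to 81639 to 89596 in Pxmp2-/- mice. The Pxmp2-/- mean of this sum, in which bright genes weigh most, was 89.8% of WT. For Pdgfra it was 43.1% in the brightest probe set, 62.2% in the middle one and 71.5% in the dimmest, untested one. At an unadjusted p under 0.05, 5 of the 23 genes were lower and 3 higher (8.62% and 5.54% of all tested genes were). Of the 23, 0 passed the adjusted threshold (0.0391% of all tested genes did). Mfap5, a microfibril protein, differed by 0.61 and Thy1, a surface protein of fibroblasts, by 0.60 on the log2 scale, with every Pxmp2-/- mouse above every WT mouse. The matrix gene Fbln2 (-0.51) and Lox (-0.43), whose enzyme cross-links collagen, had every Pxmp2-/- mouse below every WT mouse. The 15 endothelial markers, a cell type that makes PDGF-B, summed to 29619 to 32271 in WT and to 25000 to 27910 in Pxmp2-/- mice. Of these, 7 were lower (8.62% of all tested genes were) and 0 higher at an unadjusted p under 0.05, with 0 past the adjusted threshold, and the Pxmp2-/- mean was 86% of WT beside 78.7% for the brighter Pdgfb probe set. Sox18 and Erg, transcription factors of endothelium, differed by -0.55 and -0.37, and the vascular gene Egfl7 by -0.37. The bright gene Kdr, also among the 7, differed by -0.48. Kdr and Flt1, another gene of this list, lie on chromosome 5 with Pxmp2, and the part of linked DNA in their readings was not tested. The endothelial markers were not lower throughout: the tight junction gene Cldn5 differed by 0.20, Vwf by 0.09, Pecam1 by 0.05 and Eng by -0.07, none with p under 0.05.

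Mural cell markers, from the cells that carry the beta receptor, summed to 24559 to 26848 in WT mice and 24444 to 26033 in Pxmp2-/- mice over 13 tested genes. Of them 1 was lower and 0 were higher at an unadjusted p under 0.05, against 8.62% and 5.54% of all tested genes. The count of lower genes is near that share, and 0 passed the adjusted threshold. The lower one was Vtn, which encodes vitronectin, at -0.29. The proteoglycan gene Cspg4 differed by -0.16, the smooth muscle myosin gene Myh11 by -0.16 and the channel gene Kcnj8 by -0.12, none with p under 0.05. Platelets store PDGF. Of 5 tested platelet markers 2 were lower and 0 higher at an unadjusted p under 0.05 (8.62% and 5.54% of all tested genes were). They were Ppbp with -0.61 and Itga2b with -0.22. Ppbp read 544, 273 and 291 in WT mice and 242, 206 and 230 in Pxmp2-/- mice, so WT 1 stood apart. The list had sums of 4499 to 4643 in WT and 3812 to 4690 in Pxmp2-/- mice. Pf4, the platelet factor gene, differed by -0.13 and Gp1bb by 0.31, and 0 of the 5 passed the adjusted threshold. Ppbp and Pf4 lie on chromosome 5 between Pdgfra and Pxmp2, and the part of linked DNA in their readings was not tested.

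Markers of cell types not named so far were read in the same way. Macrophage markers summed to 13530 to 14102 in WT mice and 14450 to 18133 in Pxmp2-/- mice, with 6 of 12 tested genes higher (5.54% of all tested genes were) and 0 lower at an unadjusted p under 0.05. The highest sum was that of Pxmp2-/- 1, while Pxmp2-/- 2 and 3 had 14450 and 14566. The lysozyme gene Lyz2 differed by 0.85 (limma adjusted p = 0.0589), the protease gene Ctss by 0.74 and Adgre1 by 0.46, and 0 passed. Mrc1 (-0.19), Lgals3 (-0.18), Cd14 (-0.07) and Cd163 (-0.02) had differences below 0, none with p under 0.05. White adipocyte markers summed to 113520 to 119520 and 112520 to 117150 over 10 genes, with 0 at an unadjusted p under 0.05 in either direction. Their 4 smallest p belonged to Slc2a4 (-0.22), Lep (-0.23), Pparg (-0.12) and Pnpla2 (0.03). Mammary epithelial markers were dim, with 6 of 14 genes tested, and summed to 3182 to 4175 and 3383 to 4100. At an unadjusted p under 0.05, 1 was higher, Cdh1 (1.01), and 2 were lower, Krt19 (-0.39) and Trp63 (-0.56). Over all tested genes 5.54% were higher and 8.62% lower. Pgr (0.20) did not reach this p, and 0 passed. Of 3 tested skeletal muscle markers, which summed to 708 to 867 and 771 to 802, 1 was higher at this p, Mylpf by 0.54, beside Atp2a1 with 0.38 and Ckm with -0.14. The part of these cell types in the differences of the PDGF genes was not tested.

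Transcripts of proteins that process or bind PDGF were read as well. Of 11 tested genes 0 had an unadjusted p under 0.05 in either direction (8.62% of all tested genes were lower and 5.54% higher). Of them 0 passed the adjusted threshold, and the median log2 difference was 0.02. The proprotein convertase genes Pcsk5 and Pcsk6 differed by -0.21 and 0.27. For Pcsk5 every Pxmp2-/- mouse lay below every WT mouse, and the 95% interval of Pcsk6 ran from -0.05 to 0.60. Plat, whose product activates PDGF-C, differed by 0.17, with 154, 220 and 192 in WT mice and 196, 219 and 225 in Pxmp2-/- mice. Cspg4, a binding partner of PDGF-AA, appears above.

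Adaptors and kinases below the receptors had a median difference of -0.07 over 35 tested genes. There 1 was lower and 1 higher at an unadjusted p under 0.05 (8.62% and 5.54% of all tested genes were), and 0 passed the adjusted threshold. The adaptor gene Grb14 read 374, 497 and 402 in WT mice and 621, 583 and 600 in Pxmp2-/- mice, a log2 difference of 0.50 ± 0.12 (SE). The MAP kinase kinase gene Map2k2 read 1041, 1199 and 1165 against 909, 883 and 820, a log2 difference of -0.38 ± 0.09 (SE). Both had separate groups. Plcg1, the phospholipase that docks on both receptors, differed by -0.22 and Grb10 by -0.17, neither with p under 0.05.

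Attenuators of the receptors had a median of -0.05 over 15 tested genes, and 0 passed the adjusted threshold. At an unadjusted p under 0.05, 1 was lower and 0 higher, against 8.62% and 5.54% of all tested genes. The count of lower genes is near that share. The lower one was Socs3, a feedback inhibitor of cytokine signalling, with 231, 248 and 239 in WT mice and 207, 157 and 189 in Pxmp2-/- mice (log2 difference -0.36). Spry1, which restrains receptor kinase signalling, differed by 0.32, the phosphatase gene Ptprj by 0.35 and the scaffold gene Slc9a3r2 by -0.24.

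Immediate early genes, which growth factors induce within minutes to hours, had a median of 0.21 over 19 tested genes. At an unadjusted p under 0.05, 6 were higher and 2 lower, against 5.54% and 8.62% of all tested genes. Of the 19, 0 passed the adjusted threshold. The phosphatase gene Dusp1 read 2375, 1897 and 2252 in WT mice and 2806, 3412 and 3209 in Pxmp2-/- mice, a log2 difference of 0.53. Nr4a1 differed by 0.74 and Fos by 0.63, both with separate groups. In the opposite direction Klf10 read 2220, 2256 and 1920 in WT mice and 1610, 947 and 1359 in Pxmp2-/- mice, a log2 difference of -0.73. Many stimuli other than PDGF drive these genes.

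Relatives of the receptors and ligands were set beside them. Both PDGF receptors belong to the class III receptor kinase family. Tested beside them were its receptor genes Csf1r and Kit and the ligand genes Csf1, Kitl and Il34. At an unadjusted p under 0.05, 2 of these 5 were higher and 0 lower (5.54% and 8.62% of all tested genes were). They were Csf1r (0.31) and its ligand gene Csf1 (0.27), while Kitl differed by -0.34 and Il34 by 0.17. Csf1r also belongs to the macrophage list. In the VEGF family, whose ligands share the PDGF fold, 3 of 8 were lower and 0 higher at this p (8.62% and 5.54% of all tested genes were). They were Kdr (-0.48), Flt4 (-0.34) and Vegfd (-0.30), and Flt1 differed by -0.19. Kdr and Flt1 also stand in the endothelial list and lie on chromosome 5, and the part of linked DNA in their readings was not tested. Of either family 0 genes passed the adjusted threshold.

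**Figure D4:**
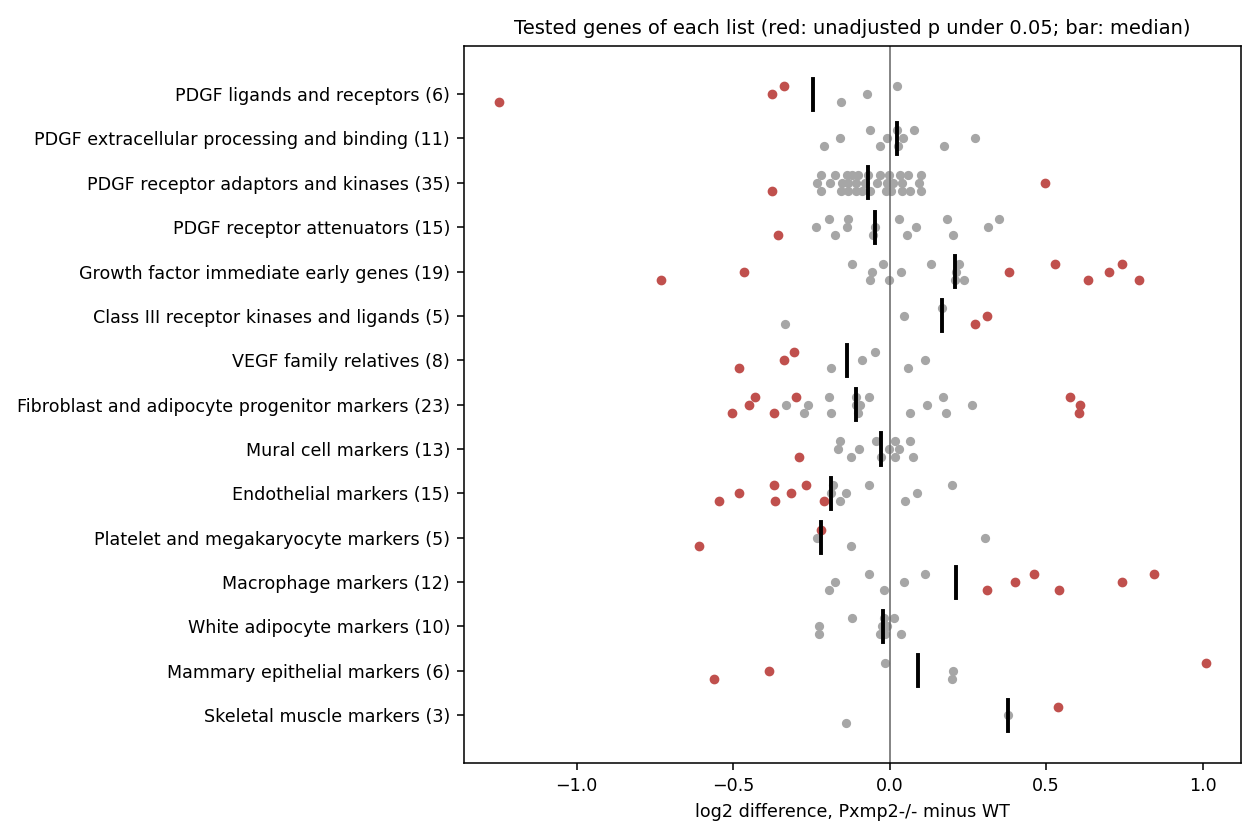
Log2 difference (Pxmp2-/- minus WT, horizontal axis) of each tested gene, brightest probe set, in the 15 lists, with the number of tested genes in brackets; red points have an unadjusted limma p under 0.05 and black bars are medians. The median of the PDGF genes lies at -0.25, with Pdgfra at -1.25 left of all other genes shown, and that of the immediate early genes at 0.21.

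Pdgfra, Pdgfa and Pxmp2 lie on chromosome 5. In the order of the 808 tested genes of that chromosome, 141 genes lie between Pdgfra and Pxmp2 and 287 between Pxmp2 and Pdgfa. Of the 17 probe sets past the adjusted threshold, 9 (5 lower and 4 higher) were among the 1442 tested on this chromosome, each from another gene. Pxmp2 itself, the disrupted gene, is 1 of the 9 and had the smallest p of all tested probe sets. The 9 became 1 without WT 3, Pxmp2-/- 2 or Pxmp2-/- 3, 2 without WT 2, 3 without WT 1 and 11 without Pxmp2-/- 1. In each run that left 1, no probe set of another chromosome passed. Genes on chromosome 5 other than Pxmp2 had separate groups in 27.1% of cases, against 22.3% on the other chromosomes, and an unadjusted p under 0.05 in 17% against 14%. Between Pdgfra and Pxmp2 these shares were 31.9% and 22.7%. Among the 20 tested genes nearest to Pdgfra, groups were separate for 6, and among the 20 nearest to Pxmp2, for 9. By brightest probe sets, Pxmp2 was the single other gene of chromosome 5 that was lower by as much as Pdgfra.

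Of the 5 tested genes on either side of Pdgfra, Kdr was the one that was lower with separate groups. On the side before it, in order towards it, Rasl11b differed by 0.15, Scfd2 by 0.28, Fip1l1 by -0.12, Lnx1 by 0.15 and Chic2 by 0.11. Behind it came Kit, the receptor for stem cell factor, with 0.05, then Kdr with -0.48, Srd5a3 with -0.14, Tmem165 with -0.04 and Clock with -0.11. Only Scfd2 and Kdr had separate groups. Kdr, the main VEGF receptor of endothelium, read 4438, 4665 and 4733 in WT mice and 4004, 3168 and 2823 in Pxmp2-/- mice. The brightest Pdgfra probe set had the same order of the Pxmp2-/- mice. So did the first principal component of all tested probe sets. Kit read 327, 230 and 234 against 319, 201 and 302, with overlapping groups. The other 2 PDGF genes with separate brightest probe sets are Pdgfb on chromosome 15 and Pdgfc on chromosome 3. DNA inherited together with the disrupted gene could reach Pdgfra in some or all of the Pxmp2-/- mice, which was not measured. For Pdgfra, the part of such DNA and that of the loss of Pxmp2 cannot be told apart.

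**Figure D5:**
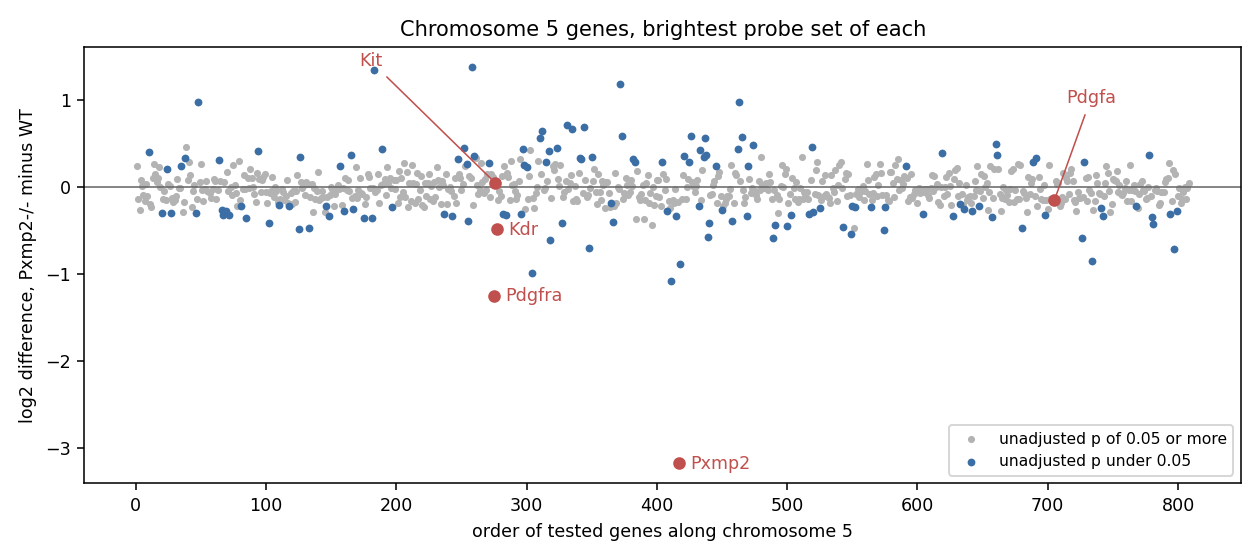
Log2 difference (Pxmp2-/- minus WT, vertical axis) of the 808 tested genes of chromosome 5 in chromosome order (horizontal axis, brightest probe set of each gene); blue points have an unadjusted limma p under 0.05 and red points are named. Pdgfra lies at -1.25 and its neighbours Kit and Kdr at 0.05 and -0.48.

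By Pearson correlation of log2 values over the 6 arrays, the tested genes whose pattern was most like that of the brightest Pdgfra probe set were Cnot10 (r = 0.997), Nt5c (0.996), Plekhm1 (0.996), Guf1 (0.994) and Pola2 (0.994). Over 6 arrays and 12775 genes such values describe these arrays only. All 5 were lower in every Pxmp2-/- mouse than in every WT mouse, with log2 differences of -0.21, -0.29, -0.12, -0.39 and -0.26, and each was lowest in Pxmp2-/- 3. These genes were picked for their match to Pdgfra on the same arrays, so their direction, separate groups and lowest mouse follow from that choice. Their differences were a fraction of that of Pdgfra, and Guf1 alone among them lies on chromosome 5.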

How the data were processed

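The authors deposited a table of linear intensities for 6 Affymetrix arrays, whose summarisation and scaling are not given in the sources used here. Per the labels' protocols, a lipid tissue kit was used for the RNA, and the label was biotin. No column was left unmatched (0).

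Intensities were transformed to log2(intensity + 16), and fold changes on that scale understate the change of dim transcripts. The level filter kept the 27022 of 45037 probe sets whose mean on this scale exceeded its 40th percentile, 6.23. They were fitted by genotype in limma 3.58.1 (R 4.3.3) with lmFit, eBayes and two-sided p, adjusted by Benjamini-Hochberg over all of them, with 0.05 as the threshold. The procedure was tested on simulated data. SEs and 95% intervals are limma's. Ratios within arrays were compared by exact permutation. For lists, the brightest probe set stood for each gene. Symbols came from the platform annotation (34945 probe sets with 1 symbol, 932 with several, 9160 with none) and were looked up by Entrez number in RefSeq's GRCm38.p6 table, which changed 0. The files name no build, so that table gave names, chromosomes and gene order.

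The members, lists and rules were chosen with earlier results of these data known. Named were all member probe sets, up to 4 genes per list with the smallest p, 5 tested neighbours on either side of Pdgfra, the 5 genes most correlated with it, and Pxmp2. Beyond this rule, further endothelial and macrophage markers were named to show those that differed little or in the other direction. Deviations of same-numbered mice correlated at 0.02, 0.04 and -0.12, so the numbers were not taken as pairs. The arrays are separate mice per the labels. Alternatives were 2 scalings, 2 pseudocounts, 2 level filters, a mean-variance trend, array weights, 1 probe set per gene, removal of _x_at and _s_at probe sets, the replicate block and leaving out each array. Plots used matplotlib 3.10.9.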

Additional observations from a re-analysis of the deposited data

How the results depend on the processing

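The count of PDGF probe sets past the adjusted threshold was 0 in every alternative run. The log2 difference of Pdgfra (1421917_at) kept its direction in all 17 alternatives, between -1.45 and -0.94, with limma adjusted p from 0.086 to 0.358. In the replicate block it was -1.25 with an adjusted p of 0.276, and the block changed the call of no PDGF probe set, while over all probe sets the calls went from 17 to 1. The Pdgfra to Pdgfrb ratio kept its direction in all its alternatives. With 1 probe set per gene, 3 PDGF probe sets were lower at an unadjusted p under 0.05 in place of 6. Of the genes in the other lists, 1 (Lyz2) passed after quantile normalization, median centring, a pseudocount of 64, the 60th percentile filter, the mean-variance trend or array weights. The 9 chromosome 5 genes with any probe set past the threshold (1 each) include Pxmp2 itself. They became 1 with no level filter, 1 in the replicate block and 1 to 11 when single arrays were left out. The cause of these changes was not tested. They became 3 when the brightest probe set alone stood for each gene, a rule that leaves out their other probe sets. Differences near 0 changed sign in some fits. Pdgfd (1456532_at) was -0.0103 with array weights and between -0.0441 and 0.10 when single arrays were left out. Over the latter, Pdgfa (1449187_at) ranged from -0.17 to 0.024, Pnpla2 from -0.00236 to 0.059, Rasl11b from -0.0596 to 0.27 and Kit from -0.0699 to 0.24. Kit was -0.0479 with array weights and Tmem165 was 0.00907 after quantile normalization. The other Pdgfd probe sets are dim (1426319_at) or below the level filter (1446691_at), which limits what can be said of Pdgfd.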
